A study of Macaca mulatta with 30 samples.

Results

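GABA-A receptors are chloride channels that open when the inhibitory transmitter GABA binds, and each is assembled from several subunits around a central pore. The alpha subunits shape where a receptor sits and how it responds to GABA and benzodiazepines, the beta subunits are needed for assembly and for the GABA site, and a gamma or delta subunit completes most receptors. In cortex, receptors with a gamma subunit lie mostly at synapses, while those with the GABRD subunit, and many with GABRA5, lie outside synapses and carry a sustained inhibitory current.

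The genes described here are 7 GABA-A receptor subunits: the alpha subunits GABRA2, GABRA3, GABRA4 and GABRA5, the beta subunits GABRB1 and GABRB2, and the delta subunit GABRD. A gene was taken as measured where a probe set of the array carried its symbol and no other, with the brightest probe set used per gene. This found 5 of the 7, each with 1 probe set, among 15534 distinct gene symbols. GABRA4 and GABRB1 were not analysed here. All 5 passed the filter on dim probe sets described with the processing, as did 11443 of the 15534 symbols. The probe sets were 13755821 for GABRA2, 13812901 for GABRA3, 13770517 for GABRA5, 13769460 for GABRB2 and 13580123 for GABRD. The annotation gave a gene identifier for all but GABRD, which was matched by symbol. No positions are given, since the build used to design the array is not given in the sources used here.

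The samples were total RNA from frozen post-mortem cortex of 5 rhesus macaques (Macaca mulatta), with no treatment or genotype given in the labels. Each animal gave tissue from 3 regions of both hemispheres: ventrolateral prefrontal cortex at the arcuate sulcus (VFC), posterior superior temporal cortex (STC) and primary motor cortex where it controls the forelimb (M1C). VFC and STC were chosen as the counterparts of the human speech areas of Broca and Wernicke. This gave 30 Affymetrix arrays in 6 groups of region and hemisphere, with 1 array per animal and 5 per group. Animals 1, 2 and 3 were females of 7.3, 5.5 and 8.6 years, and animals 4 and 5 were males of 4.2 and 2.0 years. The tissue was a block of whole cortex, so a probe set reads all cell types together, and fewer cells of a type cannot be told apart from less RNA per cell.

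Once the means of the 6 groups were taken off, 28 of the 30 arrays correlated best with the other arrays of their own labelled animal. The arrays labelled M1C left of animal 3 and STC right of animal 4 were closest to animals 4 and 3 respectively. The Y-linked gene EIF1AY read 8.34 on the first, labelled female, and 7.25 on the second, labelled male, against 6.83 to 7.70 in females 1 and 2 and 8.30 to 8.53 in male 5. Results are given with all arrays as labelled, and without these 2 arrays where that changes a call. The labels of these arrays were not altered. On the tissue check, the markers of excitatory neurons, interneurons and glia were measured in all 3 regions, and of the markers with a probe set only the microglial genes AIF1 and C1QA were too dim to test.

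GABRA5 was higher in prefrontal than in motor cortex. This alpha subunit is best known from the hippocampus and from receptors outside synapses. Its level in VFC, with the hemispheres averaged, was 10.73, 10.68, 10.75, 10.74 and 11.07 in animals 1 to 5 on the log2 intensity scale. In M1C the levels were 10.45, 10.25, 10.40, 10.35 and 10.28. Every VFC value lay above every M1C value. The 10 single VFC arrays ran from 10.55 to 11.10 (median 10.80) and the 10 M1C arrays from 10.03 to 10.52 (median 10.35), again without overlap, which held for 0.148% of all tested probe sets. The difference was 0.45 ± 0.080 on the log2 scale (moderated SE, n = 5 animals), or 1.37-fold, and it passed limma's test over all probe sets (adjusted p = 0.0055, higher in 5 of 5 animals). The single animals gave 0.28, 0.43, 0.36, 0.39 and 0.79. In this comparison 10.5% of all tested probe sets passed, and GABRA5 was the only one of the 5 subunits to do so. The call was lost in 1 of 16 alternative settings, that with left hemisphere arrays alone, where the adjusted p was 0.0852.

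In temporal cortex GABRA5 stood close to motor cortex on average. The STC levels were 10.63, 10.03, 10.30, 10.41 and 10.40 in animals 1 to 5. The low level of animal 2 came from its right array, at 9.64, while its left array read 10.42. The 10 STC arrays ran from 9.64 to 10.67 (median 10.41) and overlapped both other regions. STC minus M1C was 0.011 ± 0.080 (95% interval -0.16 to 0.19, adjusted p = 0.958), higher in 3 of 5 animals, and 0.090 (adjusted p = 0.544) without that array. VFC minus STC was 0.44 ± 0.080, or 1.36-fold, and higher in VFC in 5 of 5 animals, yet it missed the threshold narrowly (adjusted p = 0.0515). Its 5 within-animal values were 0.095, 0.64, 0.46, 0.33 and 0.67. Without the 2 arrays that went against their labels it passed (0.42, adjusted p = 0.0431), but not without the right STC array of animal 2 (0.36, adjusted p = 0.0752) or with left arrays alone (0.28, adjusted p = 0.458). It passed in 6 of 16 alternative settings. The order of the means was thus VFC at 10.79 ± 0.16, then STC at 10.35 ± 0.22 and M1C at 10.34 ± 0.081 (SD, n = 5), with the last pair not differing beyond their spread.

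GABRA3 followed another order, with temporal cortex lowest. This alpha subunit is found at synapses of cortical neurons and on monoaminergic cells of the brainstem. In VFC it read 9.89, 9.97, 10.03, 9.79 and 9.99 in animals 1 to 5. In STC it read 9.47, 9.36, 9.47, 9.74 and 9.46. All 5 VFC levels lay above all 5 STC levels, although the closest pair, both from animal 4, were 0.053 apart. The 10 single arrays did overlap, from 9.64 to 10.13 in VFC (median 9.98) and from 9.06 to 9.96 in STC (median 9.50). Only 0.0206% of probe sets had no overlap between the arrays of these regions. VFC minus STC was 0.43 ± 0.074, or 1.35-fold, and passed the test (adjusted p = 0.0405, 5 of 5 animals). The call held in 8 of 16 alternative settings. It was lost with no filter on dim probe sets (adjusted p = 0.115), with left or right arrays alone (0.296 and 0.248), and without animal 1, 2, 3 or 5 (0.0613, 0.150, 0.178 and 0.249). Few probe sets passed in this comparison, 0.214% of all tested, and GABRA3 was the only subunit of the 5 among them.

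The highest STC value of GABRA3, 9.96, came from the array labelled STC right of animal 4, which went against its label. Without the 2 such arrays the difference was 0.48 and the adjusted p 0.0049, and the within-animal values ran from 0.27 to 0.61. Without the STC right array of animal 2, an alternative chosen after seeing the data because that array held the lowest GABRA5 value, the difference was 0.37 and the call was lost (adjusted p = 0.0526). On that array GABRA3 read 9.06 and GABRA5 read 9.64, the lowest of all 30 arrays for both, while GABRA2, GABRB2 and GABRD lay within the range of the other STC arrays. The mean of the meningeal markers stood at 8.55 on that array against 7.16 to 8.54 on the other 9 STC arrays. Their part in the result was not tested.

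Motor cortex lay between the other regions for GABRA3. The M1C levels were 9.81, 9.77, 9.69, 9.77 and 9.59 in animals 1 to 5. VFC minus M1C was 0.21 ± 0.074 (adjusted p = 0.0958) and STC minus M1C was -0.22 ± 0.074 (adjusted p = 0.126). Each had the same direction in 5 of 5 animals, and neither passed with all arrays. Without the 2 arrays both passed, at 0.19 (adjusted p = 0.0466) and -0.29 (adjusted p = 0.0076). The region means were 9.93 ± 0.093 in VFC, 9.72 ± 0.088 in M1C and 9.50 ± 0.14 in STC (SD, n = 5). Neighbours in this order were each apart in 5 of 5 animals but overlapped over single arrays.

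GABRA2 differed from both in that temporal cortex lay near prefrontal cortex. This alpha subunit is abundant in forebrain and is enriched at synapses onto the start of the axon. Its VFC levels were 9.66, 10.21, 9.66, 9.86 and 9.75 in animals 1 to 5. Its STC levels were 9.80, 9.89, 9.68, 9.56 and 9.81, and its M1C levels 9.55, 9.43, 9.64, 9.31 and 9.64. VFC minus M1C was 0.31 ± 0.095, or 1.24-fold, with a 95% interval of 0.11 to 0.52 (adjusted p = 0.0552, 5 of 5 animals). The animals were uneven, with 0.78 in animal 2 and 0.55 in animal 4 but 0.12, 0.013 and 0.11 in animals 1, 3 and 5. It passed without the 2 arrays (0.35, adjusted p = 0.0172). STC minus M1C was 0.23 ± 0.095 (adjusted p = 0.204, 5 of 5 animals), and 0.28 without the 2 arrays (adjusted p = 0.0524). VFC minus STC was 0.081 ± 0.095, with an interval of -0.13 to 0.29 and 2 of 5 animals higher in VFC. The means were 9.83 ± 0.23 in VFC, 9.75 ± 0.13 in STC and 9.52 ± 0.14 in M1C, and no neighbouring pair passed the test with all arrays.

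**Figure D1:**
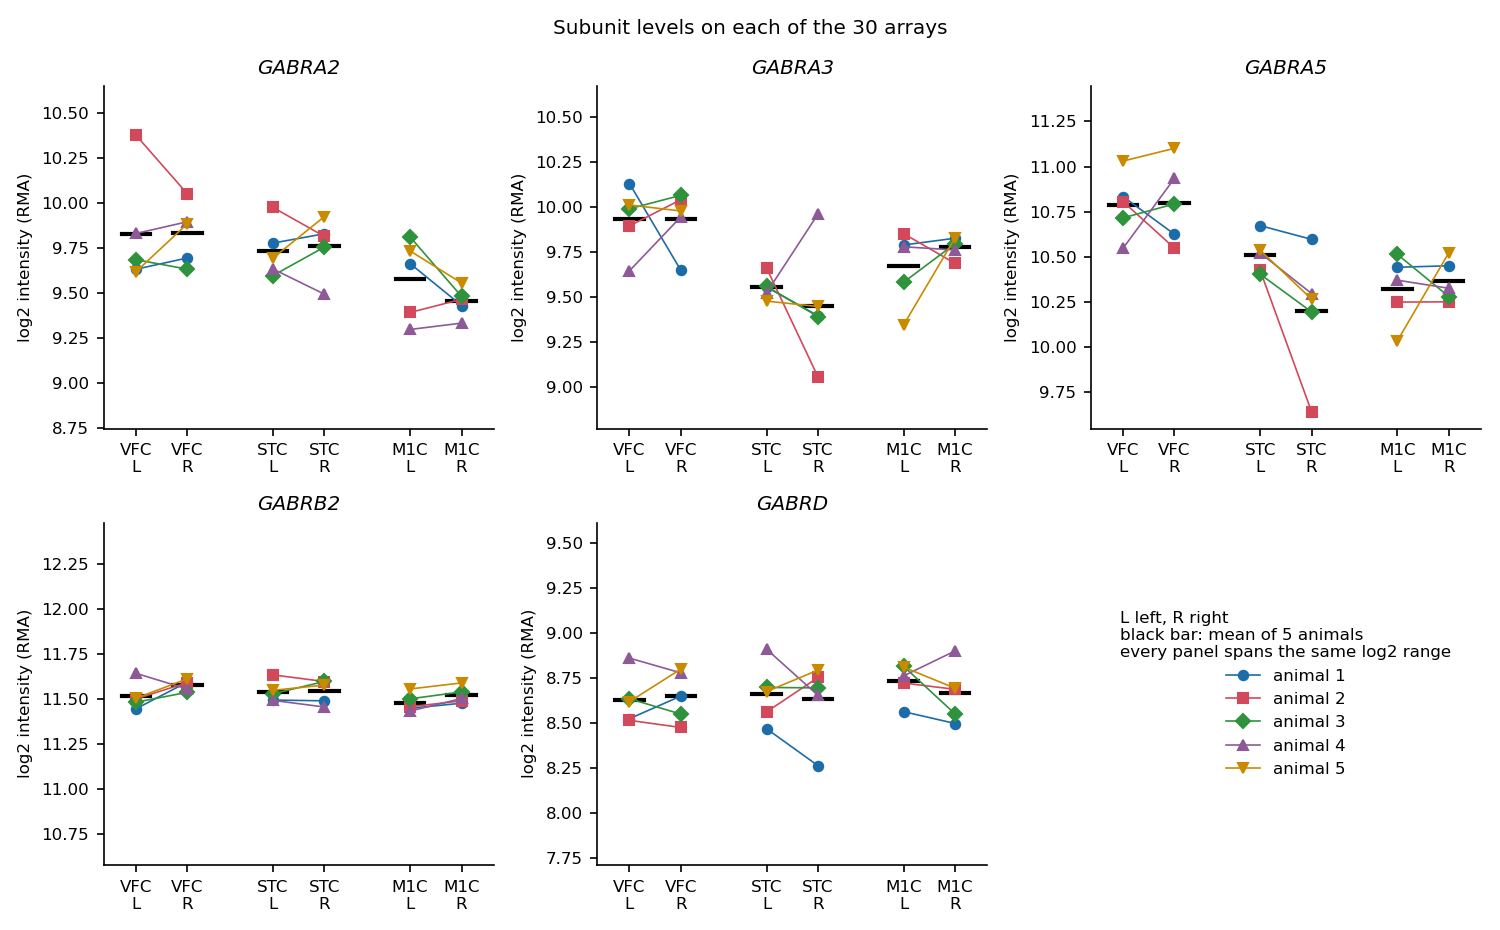
Level of each measured subunit on every array (log2 intensity, vertical axis) by region and hemisphere, with 1 symbol per animal, lines that join the hemispheres of an animal and black bars at the mean of 5 animals. GABRA5 is higher on all 10 VFC arrays than on all 10 M1C arrays, the means of GABRA3 are lowest in STC, and GABRB2 and GABRD lie at similar levels in the 3 regions.

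The plot of levels by array shows the contrast between the 3 alpha subunits and the other genes. The beta subunit GABRB2, abundant in adult cortex, was nearly level across regions. Its means were 11.55 ± 0.035 in VFC, 11.54 ± 0.058 in STC and 11.50 ± 0.047 in M1C (SD, n = 5). Its 30 arrays spanned only 11.43 to 11.64. VFC minus M1C was 0.047 ± 0.040, with a 95% interval of -0.041 to 0.135. The interval of GABRA2, 0.11 to 0.52, overlapped it, and a difference between these genes was not tested. STC minus M1C was 0.042 ± 0.040 (adjusted p = 0.624) and VFC minus STC 0.0050 ± 0.040 (adjusted p = 0.979).

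GABRD, the delta subunit of extrasynaptic receptors sensitive to neurosteroids, was likewise similar in the 3 regions. Its means were 8.64 ± 0.13 in VFC, 8.65 ± 0.16 in STC and 8.70 ± 0.11 in M1C. VFC minus M1C was -0.059 ± 0.051 (interval -0.17 to 0.052, adjusted p = 0.530), and 4 of 5 animals were lower in VFC. STC minus M1C was -0.053 ± 0.051 and VFC minus STC -0.0065 ± 0.051 (adjusted p = 0.979). Over the 3 comparisons the 95% intervals of GABRB2 and GABRD all lay between -0.17 and 0.135.

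Across all comparisons the subunits' counts can be read against the whole array. With all arrays 1 of 5 passed in VFC against M1C, 0 of 5 in STC against M1C, where 2.36% of probe sets passed, and 1 of 5 in VFC against STC. At an unadjusted p under 0.05 the count in STC against M1C was 2 of 5, where 4710 of 24292 probe sets lay under that value. Without the 2 arrays the counts were 3, 1 and 2 of 5, against 14.7%, 12.6% and 0.655% of all probe sets. A further pair of arrays was doubted in an earlier analysis of these data, the right STC array of animal 3 (EIF1AY 7.87) and the left VFC array of animal 4 (EIF1AY 8.29). Leaving out all 4 gave 3, 1 and 2 of 5 against 15%, 12% and 1.1%. The subunits' median VFC minus M1C difference was 0.21, against 0.0028 over all tested probe sets, and their median size regardless of sign was 0.21 against 0.069. For STC minus M1C the medians were 0.011 and 0.0047, and for VFC minus STC 0.081 and -0.0034. No subunit separated the 10 STC arrays from the 10 M1C arrays, which 0.00412% of probe sets did. These 3 comparisons share samples, so the differences of one gene in them are not independent.

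**Figure D2:**
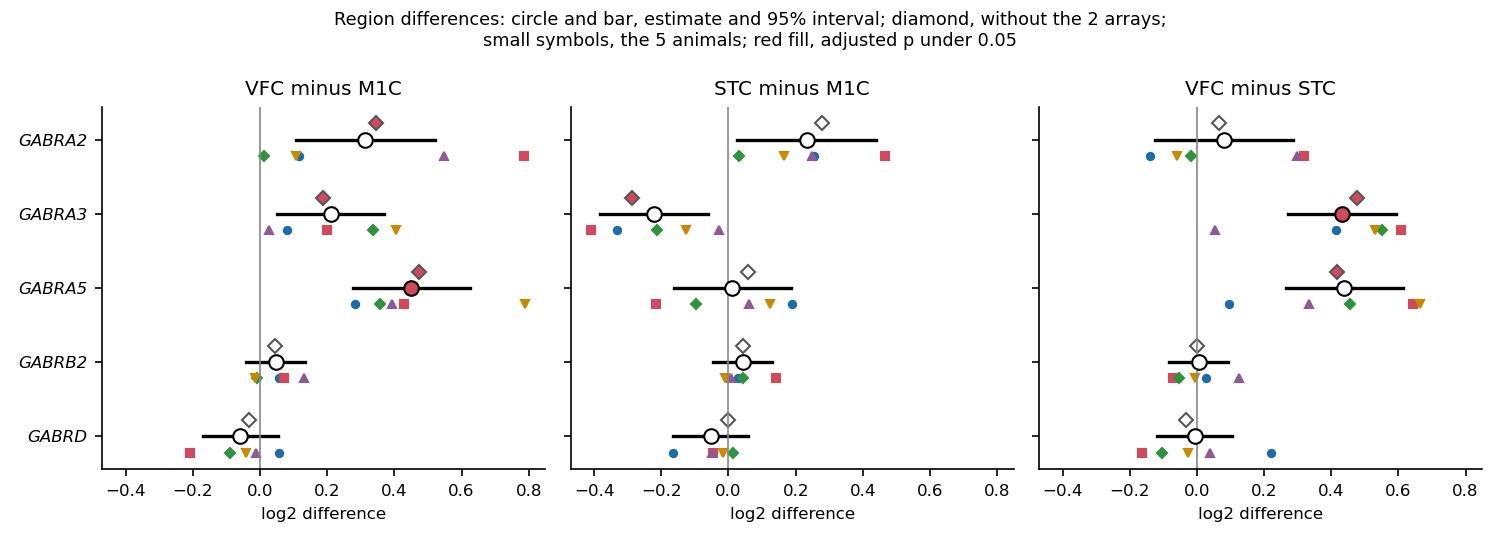
Difference between regions for each subunit (log2 difference, horizontal axis). Large circles with bars are the estimates with 95% intervals, diamonds above them the estimates without the 2 arrays that went against their labels, small symbols below the 5 animals (shaped and coloured as in the plot of levels by array), and red fill marks an adjusted p under 0.05. The GABRA5 points for VFC minus M1C lie between 0.28 and 0.79, and the GABRA3 points for VFC minus STC between 0.053 and 0.61.

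The plot of region differences shows that the intervals of GABRA5 and GABRA3 for VFC minus STC lie above 0, while those of GABRB2 and GABRD include 0 in each comparison. Markers of several cell types moved with region as well. All 9 tested oligodendrocyte and myelin markers were lower in VFC than in M1C (median -0.90), a comparison in which 10.5% of all probe sets passed. The mean of that list ran from 8.28 to 9.70 over VFC arrays, 9.04 to 10.31 over STC arrays and 9.33 to 10.40 over M1C arrays. All 6 tested markers of large-axon and fast-firing neurons were lower in VFC too (median -1.02), with list means of 9.01 to 9.92 in VFC and 9.75 to 10.79 in M1C. Of 6 meningeal markers 3 were higher in VFC, with list means of 7.41 to 8.77 there and 7.03 to 7.91 in M1C. Excitatory neuron markers passed for 2 of 7, both higher in VFC, with list means of 9.27 to 9.58 in VFC, 9.16 to 9.68 in STC and 9.22 to 9.64 in M1C. Interneuron markers passed for 1 of 10 in each direction, with list means of 8.80 to 9.01 in VFC and 8.85 to 9.05 in M1C. These list means average over markers that moved in opposite directions. The astrocyte list had 0 of 7 and the microglial list 0 of 4. Without the 2 arrays, where 14.7% of all probe sets passed, the astrocyte marker S100B was lower in VFC (-0.25, adjusted p = 0.0227). The microglial marker P2RY12 was then higher (0.21, adjusted p = 0.0296), and excitatory markers passed for 3 of 7. In that setting the interneuron markers that passed were PVALB, lower in VFC (-1.004, adjusted p = 0.00015), and SST, higher (0.46, adjusted p = 0.0028). In STC against M1C 2 of 56 markers were higher and 4 lower, the latter all of the large-axon list, against 2.36% of all probe sets. Without the 2 arrays 7 were higher and 17 lower, while the share of all probe sets rose to 12.6%. Those 17 included 7 of 9 myelin and 6 of 6 large-axon markers. The interneuron marker PVALB was also among the 17 (-0.60, adjusted p = 0.0040). The interneuron markers SST (0.65, adjusted p = 0.00059), VIP and LAMP5 were among the 7. In VFC against STC no marker passed with all arrays, where 0.214% of all probe sets passed. The median difference was -0.48 for the myelin list and -0.41 for the large-axon list, against -0.0034 over all tested probe sets. The medians of the other marker lists lay between -0.13 and 0.19. Without the 2 arrays 3 excitatory markers were lower in VFC than in STC, namely SLC17A6 (-0.82, adjusted p = 0.0393), TBR1 (-0.31, adjusted p = 0.0452) and RORB (-0.52, adjusted p = 0.0390), in the setting in which GABRA3 and GABRA5 both passed. The part of all these markers in the subunit differences was not tested.

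Hemisphere made no difference that passed the test for any subunit. Of all probe sets 0% passed in the left against right comparison over all regions, in VFC, in STC or in M1C, and 0% in the test of whether left minus right varies between regions. At an unadjusted p under 0.05 limma gave 1608, 869, 1133, 1367 and 912 probe sets respectively, of 24292. Over all regions left minus right was 0.032 ± 0.042 for GABRA2, -0.0021 ± 0.069 for GABRA3 and 0.085 ± 0.061 for GABRA5 (n = 5 animals). It was -0.036 ± 0.033 for GABRB2 and 0.026 ± 0.039 for GABRD. The adjusted p-values ran from 0.880 to 0.998, and the widest 95% interval over all regions, that of GABRA3, was -0.16 to 0.16.

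The subunit with the smallest unadjusted p by hemisphere was GABRA5 in temporal cortex. On the left it read 10.67, 10.42, 10.40, 10.52 and 10.54 in animals 1 to 5. On the right it read 10.60, 9.64, 10.19, 10.30 and 10.26. The left was higher in 5 of 5 animals, by 0.076, 0.78, 0.21, 0.22 and 0.27. The mean difference was 0.31 ± 0.11 (95% interval 0.081 to 0.55), with an unadjusted p of 0.0114 and an adjusted p of 0.999 in limma. It was 0.20 without the right array of animal 2. In VFC the same gene gave -0.014 ± 0.11 and in M1C -0.044 ± 0.11, and the test for a change of left minus right with region gave an unadjusted p of 0.0651 (adjusted p = 0.995). GABRB2 in M1C was lower on the left in 5 of 5 animals, with differences of -0.028, -0.032, -0.038, -0.070 and -0.033 in animals 1 to 5. Their mean was -0.040 ± 0.045 (adjusted p = 0.916 in limma). In these fits by region the SE, interval and p-value rest on a spread shared by all regions. They do not measure the spread of the M1C values of GABRB2 alone. These fits and the test for a change with region had no animal term, so the differences of the same animal were taken as independent.

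**Figure D3:**
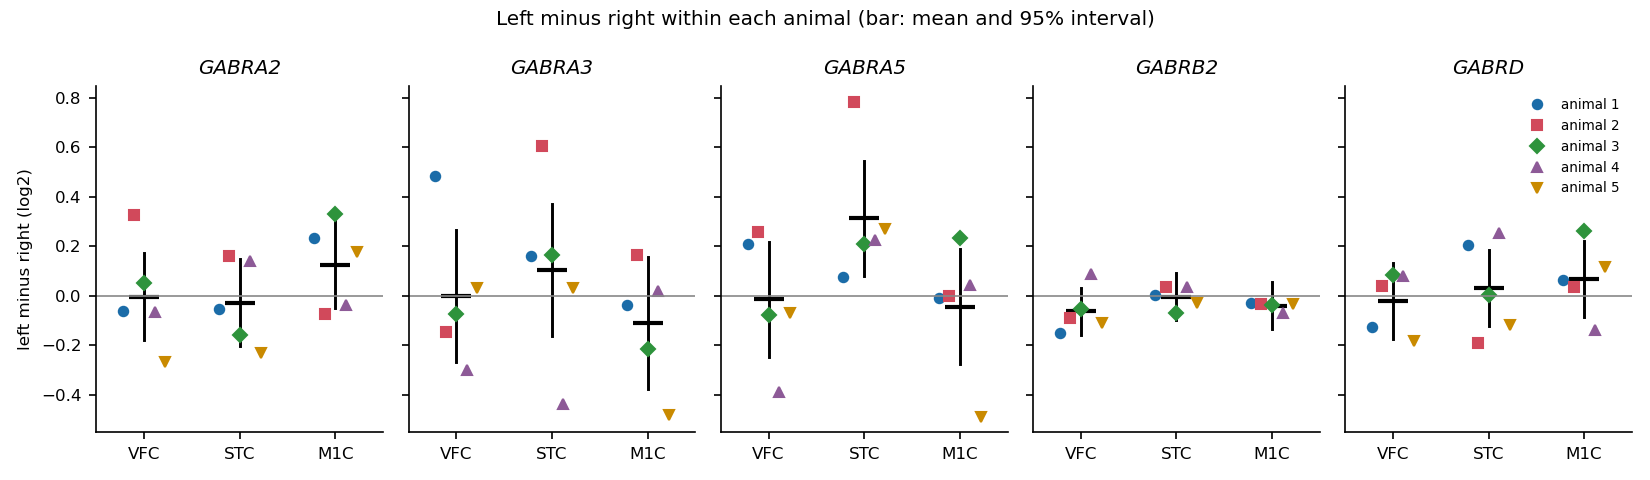
Left minus right difference of each subunit (log2 intensity, vertical axis) in VFC, STC and M1C, with 1 point per animal and the mean with its 95% interval. The intervals of a subunit use a spread shared by all regions. The 5 GABRA5 points in STC lie above 0, from 0.076 to 0.78, and the other sets of points lie on both sides of 0 except those of GABRB2 in M1C, which run from -0.070 to -0.028.

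In the plot of left minus right differences the spread between animals is wider for the alpha subunits than for GABRB2. The variance of each gene over the 30 arrays was also divided into shares. These restate the same values as percentages within a gene and do not measure that spread. Region took 50.2% of the variance of GABRA5, 50.1% of that of GABRA3 and 35.1% of that of GABRA2. It took 13.1% for GABRB2 and 3.39% for GABRD, and the median over all tested probe sets was 8.73%. Hemisphere took at most 9.33%, for GABRB2. The share that varied with the region within single animals was 32.3% for GABRA2 and 34.4% for GABRB2, against a median of 20.3%. These shares are a description and carry no test.

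GABRD was the subunit with most variance between animals, 54.6% against a median of 22.9% over all probe sets. Its means over 6 arrays were 8.49, 8.62 and 8.66 in the females, animals 1 to 3, and 8.81 and 8.73 in the males, animals 4 and 5. The males, which were also the youngest animals, had the higher means. The animal means and shares here include the 2 arrays that went against their labels. GABRD read 8.81 on M1C left of animal 3 and 8.65 on STC right of animal 4, and no means without them are given. Sex, age and single animals cannot be told apart here, and no test was made. For GABRA3 the animal means ran only from 9.68 to 9.77, and animal took 1.45% of its variance.

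Among the subunits themselves, GABRA3 and GABRA5 varied together over the arrays. With animal means taken off, their Pearson r over 30 arrays was 0.725, and it was 0.588 with region means taken off as well. Both genes were lowest on the STC right array of animal 2, at -0.64 for GABRA3 and -0.68 for GABRA5 from the animal mean. That array adds to r, and no r without it is given. For GABRA2 and GABRA5 r was 0.393 and then 0.091, and for GABRA2 and GABRB2 it was 0.463 and then 0.297. GABRD varied against GABRA3, with r of -0.366 and then -0.519. The 30 arrays share 5 animals and a common normalization, so these values are descriptions.

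The genes whose pattern was most like each subunit were found over 11029 named genes by the same measure, over 30 arrays with animal means taken off. GABRA5 was most like NEUROD6, a transcription factor of excitatory cortical neurons (r = 0.932), and FZD3, a Wnt pathway receptor (r = 0.889). NEUROD6 also had its lowest value on the STC right array of animal 2, 7.34 against 8.12 to 8.59 on the other STC arrays. GABRA3 was most like CACNA1H, a T-type calcium channel (r = 0.884), and the kinase PRKCD (r = 0.878). PRKCD was higher in VFC than in STC by 0.75 (adjusted p = 0.0046) and than in M1C by 0.48 (adjusted p = 0.0037). GABRA2 was most like SYTL5, a synaptotagmin-like protein (r = 0.918), and CNKSR2, a postsynaptic scaffold protein (r = 0.908). GABRB2 was most like MYSM1 (r = 0.811) and METTL21A (r = 0.789), and GABRD was most like AMIGO1 (r = 0.746) and BTBD6 (r = 0.728). None of these last 4 genes passed in a region comparison.

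Subunit genes lie in clusters in the macaque genome, and the neighbours were read from the order of genes in the RefSeq annotation of assembly T2T-MMU8v2.0. GABRG1 is next to GABRA2, with GABRA4 and GABRB1 on the other side. GABRA5 is next to GABRG3, and GABRA3 lies between GABRE and GABRQ. Over the 30 arrays, with animal means off, GABRA2 had an r of 0.730 with GABRG1, and GABRA3 an r of 0.694 with GABRQ. GABRA3 with its other neighbour GABRE gave -0.155, and GABRA5 with GABRG3 gave -0.057. Region means were not taken off for these pairs, so differences between regions enter r, and no r without them is given. GABRQ lay near the filter for dim probe sets (mean 6.12 against 6.04).

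GABRG1, a gamma subunit, was higher in STC than in M1C by 0.47 ± 0.095 (adjusted p = 0.0292, 5 of 5 animals), or 1.38-fold. Its arrays ran from 7.27 to 7.87 in STC and from 6.82 to 7.72 in M1C, and from 7.23 to 7.86 in VFC. VFC minus M1C was 0.28 ± 0.095 (adjusted p = 0.0828), and it passed without the 2 arrays (0.32, adjusted p = 0.0158). GABRQ, the theta subunit, had a mean of 6.36 in VFC, 5.99 in STC and 6.02 in M1C. Only the VFC mean lay above the filter for dim probe sets at 6.04, so it was tested only because of the region where it was high, and its difference of 0.34 ± 0.077 for VFC minus M1C (adjusted p = 0.0150) is given as a description. Its arrays ran from 6.12 to 6.81 in VFC, 5.49 to 6.26 in STC and 5.76 to 6.37 in M1C. GABRG3, a further gamma subunit, gave 0.047 ± 0.061 for VFC minus M1C and 0.12 ± 0.061 for STC minus M1C (adjusted p = 0.696 and 0.294). GABRE gave -0.30 ± 0.18 for VFC minus M1C (adjusted p = 0.359). GABRA6, GABRP, GABRR1, GABRR2 and GABRR3 were too dim to test.

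The other genes of GABA signalling were taken from 6 lists with 49 genes, of which 37 had a probe set and 32 were tested. In VFC against M1C 2 of the 32 were higher (KCTD16 and GABRQ, the latter with the limit above) and 4 lower, in STC against M1C 1 was higher and 1 lower, and in VFC against STC none passed. The shares of all probe sets that passed were 10.5%, 2.36% and 0.214% in the same order. The genes for making and packaging GABA, GAD1, GAD2 and SLC32A1, had 0 of 3 past the test in every region comparison. Their VFC minus M1C differences were -0.032, 0.012 and -0.13 (adjusted p = 0.684, 0.914 and 0.169).

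Of 4 tested genes of GABA uptake and breakdown, SLC6A11 passed. This transporter, known from astrocytes, was lower in VFC than in M1C by 0.29 on the log2 scale, a difference of -0.29 ± 0.065 (adjusted p = 0.0147, 5 of 5 animals). Of 3 genes of the GABA-B receptor list KCTD16, an auxiliary protein of that receptor, was higher in VFC than in M1C by 0.34 ± 0.061 (adjusted p = 0.0060, 5 of 5 animals). Its arrays ran from 10.19 to 10.62 in VFC and from 9.85 to 10.31 in M1C. Of 16 scaffold, transport and accessory genes PLCL1, which binds GABA-A receptor subunits, gave -0.36 ± 0.081 (adjusted p = 0.0142). TRAK2, an adaptor of axonal transport, gave -0.17 ± 0.042 (adjusted p = 0.0211), and both were lower in VFC in 5 of 5 animals. GPHN, the scaffold protein gephyrin, gave 0.086 ± 0.048 (adjusted p = 0.302).

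SLC12A2, which carries chloride into cells, was lower in VFC than in M1C by the most of any gene in these lists that passed. The difference was -0.46 ± 0.071 (adjusted p = 0.0033) and that for STC minus M1C -0.34 ± 0.071 (adjusted p = 0.0302), each in 5 of 5 animals. Its arrays ran from 8.97 to 9.52 in VFC, 9.20 to 9.86 in STC and 9.37 to 10.02 in M1C. SLC12A5, the exporter of neurons, gave -0.053 ± 0.048 (adjusted p = 0.552) for VFC minus M1C. Without the 2 arrays the lists gave 4 higher and 4 lower of 32 in VFC against M1C, where 14.7% of all probe sets passed. GABRG1 and DMD were the added higher genes, and the 4 still included GABRQ, with the limit given for it. In STC against M1C 3 were higher and 4 lower of 32, where 12.6% of all probe sets passed. Those higher in STC were GABRG1, KCTD16 (0.35, adjusted p = 0.0012) and MAGI2 (0.15, adjusted p = 0.0364). Those lower were SLC12A2, KCTD8 (-0.32, adjusted p = 0.0042), PLCL1 (-0.26, adjusted p = 0.0294) and SLC6A11 (-0.23, adjusted p = 0.0413). In that setting GABRG1, KCTD16, SLC12A2, PLCL1 and SLC6A11 each passed against M1C in the same direction in both VFC and STC. SLC12A2, PLCL1, TRAK2 and SLC6A11 were lower in VFC in the comparison in which all 9 myelin markers were lower, and 4 of 6 large-axon markers were lower in STC than in M1C, where SLC12A2 and GABRG1 passed. The part of those cells in these differences was not tested.

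**Figure D4:**
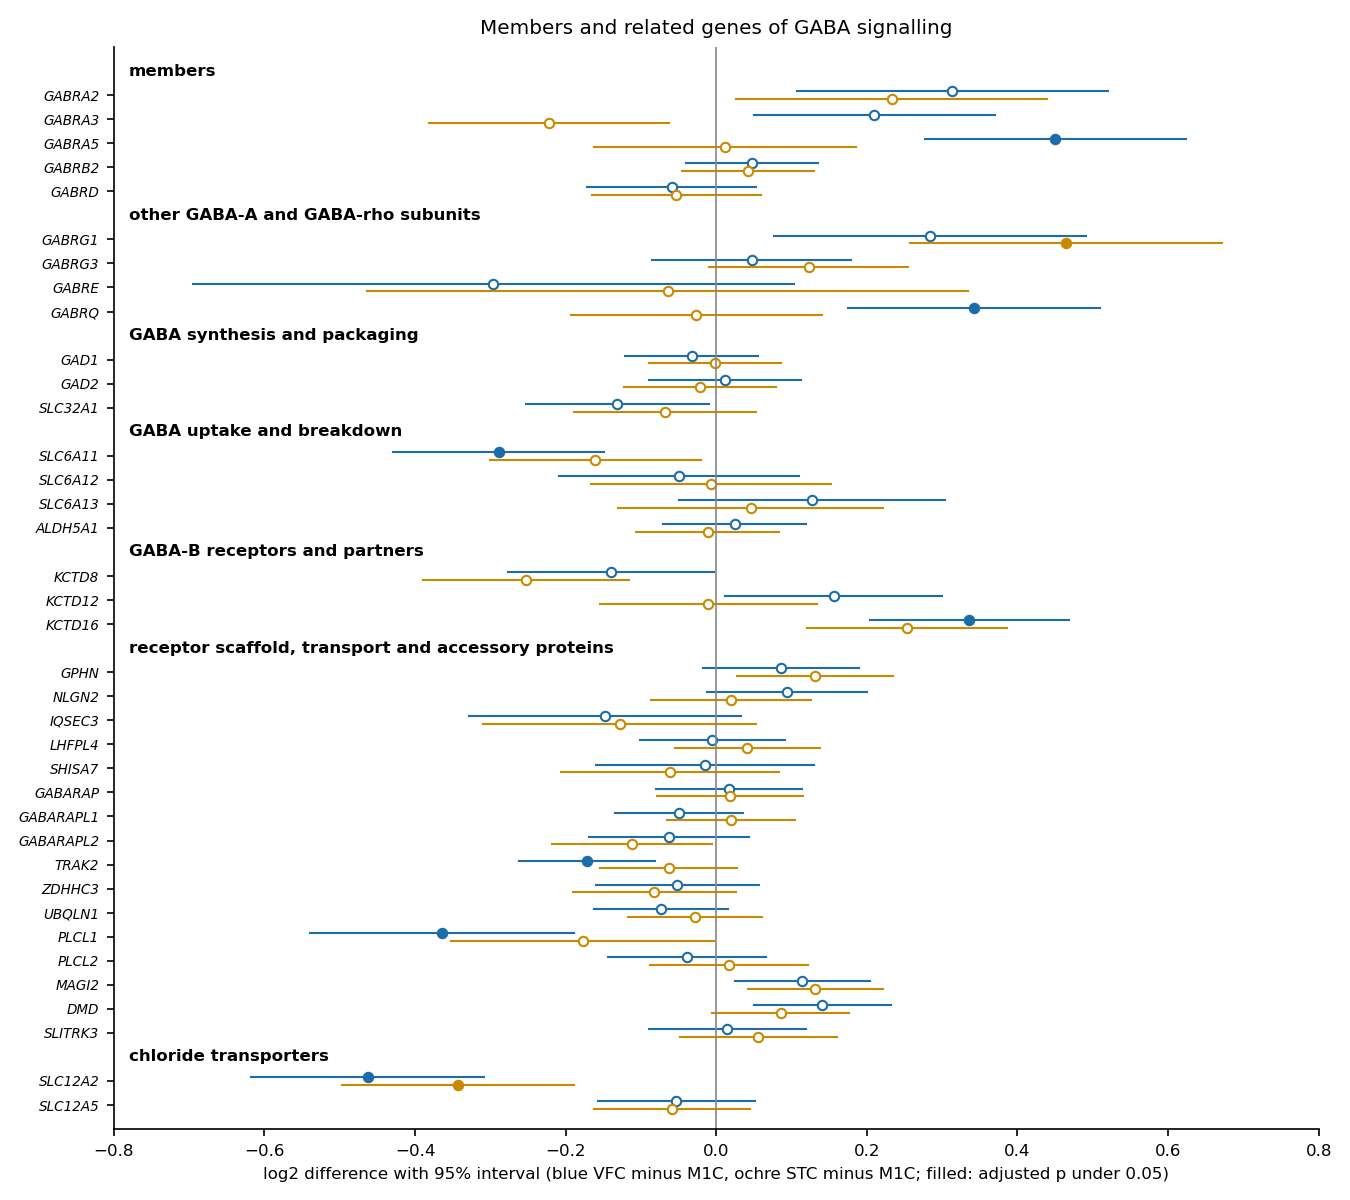
Log2 differences (horizontal axis) of the 5 subunits and the 32 tested related genes for VFC minus M1C (blue) and STC minus M1C (ochre), with 95% intervals and filled points at an adjusted p under 0.05. SLC12A2 at -0.46 and PLCL1 at -0.36 lie lowest in VFC minus M1C among the genes that passed, and GABRA5 at 0.45 lies highest.

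The plot of related genes places GABRA5 and KCTD16 on the prefrontal side of VFC against M1C, while the genes for making GABA lie near 0. No related gene passed in a hemisphere comparison.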

How the data were processed

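Frozen cortex of 5 macaques was measured on 30 Affymetrix arrays. Per the labels, the authors computed the deposited log2 intensity values by RMA with the oligo package, with versions not given in the sources used here. Of 40489 probe sets, 24292 had a mean over 30 arrays above the 40th percentile (6.04) and were tested. Medians of arrays lay between 6.57 and 6.64, and the number of animals limits the precision. Tests used limma 3.58.1 in R 4.3.3, two-sided, with Benjamini-Hochberg adjustment over all tested probe sets and a threshold of 0.05. For regions, both hemispheres were averaged to 15 values, with animal as block. For hemispheres, left minus right differences within animals were fitted. The tests by region and of a change with region used a spread shared by all regions and no animal term. The animal numbers in the titles pair the arrays: 75 same-animal pairs had a median correlation of deviations of 0.320, against -0.082 otherwise. Fits were tested on simulated data. Named by rule were all members, GABRG1, GABRG3 and the 2 genes most like each member. The rule also named related genes past the test in 5 of 5 animals (up to 4 per list). Outside the rule, GABRE, GPHN, GAD1, GAD2, SLC32A1, SLC12A5 and the related genes too dim to test were named without passing. KCTD8, MAGI2 and DMD were named because they passed without the 2 arrays. Some genes of the rule are not reported here. Members and lists were chosen with earlier results of these data known.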

Additional observations from a re-analysis of the deposited data

Results flagged for a closer look

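Of 65 sets of 5 values checked for a sample far from the others, 6 held one, where chance gives about 1 in 20. GABRA2 read 10.37 in VFC left of animal 2, against 9.62 to 9.83 in the other animals. GABRA3 read 9.65 in VFC right of animal 1, against 9.94 to 10.06. GABRA5 had a VFC minus M1C difference of 0.79 in animal 5, against 0.28 to 0.43. GABRA5 had a left minus right difference in STC of 0.78 in animal 2, against 0.076 to 0.27. GABRB2 had a left minus right difference in M1C of -0.070 in animal 4, against -0.038 to -0.028. GABRD read 8.26 in STC right of animal 1, against 8.65 to 8.79. The causes were not tested.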

How the results depend on the processing

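The directions of the GABRA2, GABRA3 and GABRA5 differences for VFC minus M1C held in all 16 alternatives, as did those of GABRA3 and GABRA5 for VFC minus STC. GABRA5 passed in 15 of 16 for VFC minus M1C (0.37 to 0.51), and GABRA3 in 8 of 16 for VFC minus STC (0.37 to 0.53). No hemisphere difference of a subunit passed in any alternative. Each subunit had 1 probe set, so averaging probe sets of a gene gave no other value. The causes of the shifts below were not tested.

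Subunits passing in VFC against M1C (1 as reported) numbered 3 without the 2 arrays and without the 4, 2 with a 60th percentile filter, with right arrays alone or with all 30 arrays as units, 0 with left arrays alone, and 1 to 2 without single animals. For the 60th percentile filter and the 30 units, the share of all probe sets that passed this comparison is not given. The rise to 2 subunits there cannot be set against a general rise in calls. In STC against M1C (0) the subunits that passed numbered 1 without the 2 or the 4 arrays and 0 to 0 without single animals. In VFC against STC (1) they numbered 2 without the 2 or the 4, with the 60th percentile filter, after median centring or with 30 units, 0 with no filter, with left or right arrays alone or without STC right of animal 2, and 0 to 1 without single animals.

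Probe sets passing in VFC against M1C (2554) numbered 1676 with no filter, 3 with left and 1147 with right arrays, and 999 to 2272 without single animals. In STC against M1C (574) they numbered 3057 without the 2, 2904 without the 4, 123 with no filter, 0 left, 25 right, 1567 with 30 units, and 2 to 427 without single animals. In VFC against STC (52) they numbered 159, 266, 15, 3, 0 and 555 in the same order, 139 with the 60th percentile filter, and 1 to 82 without single animals. Without the animal as a replicate block the counts were 833, 0 and 14. Left minus right counts of 0 became 1 over all regions with quantile normalization or median centring, 1 in VFC with the 60th percentile filter, and 0 to 1 in both without single animals.

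Differences that did not pass changed sign as follows. STC minus M1C of GABRA5 was -0.17 with right arrays and -0.033 to 0.069 without single animals. VFC minus STC of GABRB2 was -0.00058 without the 4, -0.025 with left arrays and -0.025 to 0.024 without single animals. That of GABRD was 0.0025 after median centring, 0.019 with right arrays, 0.013 without STC right of animal 2 and -0.063 to 0.032 without single animals. Left minus right over all regions was -0.0065 for GABRA2, 0.035 for GABRA3 and -0.0072 for GABRD without the 2, 0.043 for GABRA3 and -0.021 for GABRD without the 4, and -0.055 to 0.057 for GABRA3 without single animals. In VFC it was 0.012, 0.074 and 0.080 for GABRA2, GABRA3 and GABRA5 without the 4, and without single animals -0.085 to 0.063, -0.12 to 0.074 and -0.082 to 0.080, with -0.046 to 0.020 for GABRD. In STC it was -0.020 for GABRA3 without STC right of animal 2, 0.0040 for GABRB2 without the 4, and -0.026 and -0.035 for GABRD without the 2 and the 4. Without single animals it was -0.075 to 0.023 for GABRA2, -0.020 to 0.24 for GABRA3, -0.014 to 0.012 for GABRB2 and -0.026 to 0.086 for GABRD. In M1C it was -0.11 to 0.067 for GABRA5 without single animals.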
